A study of Sus scrofa with 9 samples.

Results

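Skeletal muscle of pigs at the ends of a dietary lysine range was compared: 3 pigs fed a lysine-deficient diet (pigs 1, 2 and 3) against 3 fed a lysine-excess diet (pigs 9, 10 and 11), chosen by the diet in the array titles, out of 9 pigs in the series. The other 3 pigs (5, 6 and 7) received a lysine-adequate diet, and their values are used to place the 2 ends. All were male finishing pigs that started at about 95 kg and ate their diet over 5 weeks. The labels state neither age nor breed nor the lysine content of the diets, so the size of the step between diets is unknown here. Each array holds the total RNA of the longissimus dorsi, the long back muscle, of 1 pig. Whole-transcript GeneChip arrays gave log2 values for 27558 probe sets, covering 12361 genes with a symbol, and differences below are the deficient mean minus the excess mean of those log2 values. A difference of 1 on this scale is a doubling. Each gene is represented by its probe set with the highest mean, and ± after a difference is its standard error (SE) from limma with n = 3 per group. The p-values set a difference against the spread between separate pigs within diets, estimated over all 3 diets.

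Pigs cannot make lysine, and in cereal-based diets it is usually the first amino acid to limit protein deposition. Cells sense a shortage of amino acids through the kinase GCN2, which binds uncharged transfer RNA and slows translation while favouring translation of the transcription factor ATF4, and through mTORC1, which promotes protein synthesis when amino acids are plentiful. ATF4 is known to turn on genes for serine synthesis, asparagine synthesis, amino acid import and transfer RNA charging. A low lysine supply is also known for raising fat within this muscle. The comparison asks which transcripts of the muscle differed between a short and an ample supply.

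At an adjusted p under 0.05 limma called 0 of 27558 probe sets, or 0%, so none of the differences below is a call, and they are given as values. The smallest adjusted p was 0.117, for PHGDH, the first enzyme of serine synthesis. At an unadjusted p under 0.05 limma gave 1124 probe sets, 4.08% of all, of which 784 (2.84%) were higher and 340 (1.23%) lower in deficient muscle. In 1782 probe sets, 6.47% of all, the 3 deficient pigs lay entirely above (4.28%) or entirely below (2.19%) the 3 excess pigs. Among genes with a symbol the count was 867, or 7.01%, with 625 higher (5.06%) and 242 lower (1.96%) in deficient muscle. Of all genes with a symbol, 53.9% had a higher and 46.1% a lower deficient mean, and 4.4% had an unadjusted p under 0.05 in limma, 3.34% higher and 1.06% lower. The skew was stronger for large differences: 103 of the non-overlapping genes were over 1.5-fold higher in deficient muscle and 6 were over 1.5-fold lower.

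The array of excess pig 11 bears on this skew. Its values had an SD of 1.82, where those of the other 8 arrays had 1.93 to 1.99, and its correlation with them ran from 0.904 to 0.956, against 0.977 to 0.992 among those 8. Its bright probe sets read low and its dim ones slightly high: in the ninth of 10 bins of expression level its median deviation from the median of all 9 arrays was -0.52, and in the second bin it was 0.13. The median difference between the diets in the ninth bin was 0.17 with all 6 pigs and -0.0017 without pig 11. Without that pig the genes with a symbol that did not overlap and differed over 1.5-fold numbered 66 higher and 25 lower, and after quantile normalization 81 higher and 12 lower. Of the 625 genes higher without overlap, 252 had a difference over 1.5 times smaller once pig 11 was left out, and of the 242 lower, 63 did. As their groups did not overlap, leaving out a pig could not turn the direction of any of the 867. The unadjusted count of 1124 probe sets was 1023 without pig 11 and 3969 without excess pig 9. The non-overlapping count of 1782 rose whichever of the 6 pigs was left out, since separation is easier with fewer pigs. It was 3745 without pig 11 and highest, at 7478, without pig 9. Results below are given with pig 11, and list medians also without it. Of the 33 medians described, 26 moved by over 1.5 times or turned in sign without pig 11, and 28 did so without at least 1 other of the 6 pigs.

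The tissue label fitted the markers: the 8 measured defining genes of skeletal muscle had mean levels of 12.56 to 13.37, none dimmer than the array-wide median of 5.07, and the median difference of the list was -0.06, or -0.044 without pig 11.

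Serine synthesis stood out in deficient muscle. PHGDH, which diverts a glycolytic intermediate into serine, read 6.89, 6.76 and 6.64 in deficient pigs 1, 2 and 3 and 4.92, 4.28 and 4.43 in excess pigs 9, 10 and 11. The 2 groups lay far apart, and the adequate pigs, at 4.92, 4.47 and 4.43, lay with the excess pigs. The difference was 2.22 ± 0.19 (SE), 4.66-fold, with an unadjusted p of 4.26e-06 in limma, and 2.16 without pig 11. When the adjustment covered only the probe sets with 1 symbol, PHGDH passed in limma with an adjusted p of 0.0457, the single pass under any alternative. The excess mean of PHGDH was dimmer than the array-wide median, 5.07, and its fold is therefore approximate.

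PSAT1, the next enzyme of the route, read 10.07, 8.98 and 8.28 in the deficient pigs, 7.57, 6.53 and 6.40 in the adequate pigs and 7.49, 6.77 and 6.78 in the excess pigs. The deficient pigs lay above all others, with pig 1 well above its 2 group mates, and the adequate and excess pigs overlapped. The difference was 2.10 ± 0.50, 4.28-fold, with an adjusted p of 0.872 in limma. PSPH, which completes serine synthesis, was dim, at 5.36, 5.54 and 5.40 against 5.05, 5.05 and 4.97, and differed by 0.41 ± 0.089 without overlap. All 3 enzymes of the pathway therefore lay higher in every deficient pig than in every excess pig, and with pig 11 left out they differed by 2.16, 1.98 and 0.38. SHMT2, which takes serine on into mitochondrial one-carbon units, differed by 0.70 ± 0.31 and MTHFD2, further along the same route, by 0.50 ± 0.26, and in both the groups overlapped. SHMT2 was at 0.32 without pig 11, and MTHFD2 at 0.17 without deficient pig 1.

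The wider amino acid response list, with 32 genes fixed and 25 measured, was higher in deficient muscle for 23 genes and lower for 2, where 53.9% of all genes were higher. Its median difference was 0.41, against 0.0143 over all genes with a symbol, and 0.29 without pig 11, against 0.0011. Without deficient pig 3 it was 0.27. The groups did not overlap in 10 of the 25, all higher, against 5.06% of all genes. None passed the adjusted test, 9 reached an unadjusted p under 0.05 in limma, all higher, against 3.34% of all genes, and 5 did so without pig 11. Of the 25, 7 were dimmer than the array-wide median.

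Among the regulators, ATF4 itself read 13.04, 13.05 and 13.01 in the deficient and 12.98, 13.02 and 13.03 in the excess pigs, a difference of 0.027 ± 0.053. Its message was bright and nearly level over all 9 pigs. ATF5, a related factor of the same response, read 9.21, 8.50 and 8.38 against 8.10, 7.48 and 7.15, and the adequate pigs read 7.99, 7.20 and 6.90. Every deficient pig lay above every other pig, and the difference was 1.12 ± 0.36. CEBPG, a partner of ATF4, differed by 1.00 ± 0.33, with 9.24, 8.90 and 8.63 against 8.37, 8.25 and 7.14. The groups did not overlap, but pig 11 was over 1 unit below its group mates, and without it the difference was 0.61. TRIB3, SESN2 and FGF21, commonly used reporters of ATF4 activity, were dim in every group and differed by 0.14 ± 0.066, 0.23 ± 0.13 and 0.16 ± 0.11. The stress reporters DDIT3 and CHAC1 differed by 0.20 ± 0.28 and 0.51 ± 0.56, and DDIT4, an mTORC1 inhibitor, by -0.53 ± 0.75. None of these 6 reached an unadjusted p under 0.05 in limma. Their values turned on single pigs: without pig 11 DDIT3 was at -0.053 and CHAC1 at 0.29, and DDIT4 was at -1.16 without pig 11 and at 0.20 without excess pig 10.

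Among the metabolic targets, ASNS, asparagine synthetase, read 9.39, 9.53 and 8.88 in the deficient pigs and 8.58, 8.70 and 7.24 in the excess pigs. The groups did not overlap and the difference was 1.09 ± 0.43, but it was 0.62 without pig 11, whose value was the lowest of the 9. PCK2, the mitochondrial enzyme that makes phosphoenolpyruvate, read 5.81, 5.13 and 5.15 against 4.61, 4.60 and 4.74 and differed by 0.71 ± 0.18, and here pig 11 was the highest of its group. XPOT, which exports transfer RNA from the nucleus, differed by 0.82 ± 0.32 (0.45 without pig 11). ALDH1L2, a mitochondrial folate enzyme, differed by 0.73 ± 0.28 (0.41 without pig 11), with overlap.

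**Figure D1:**
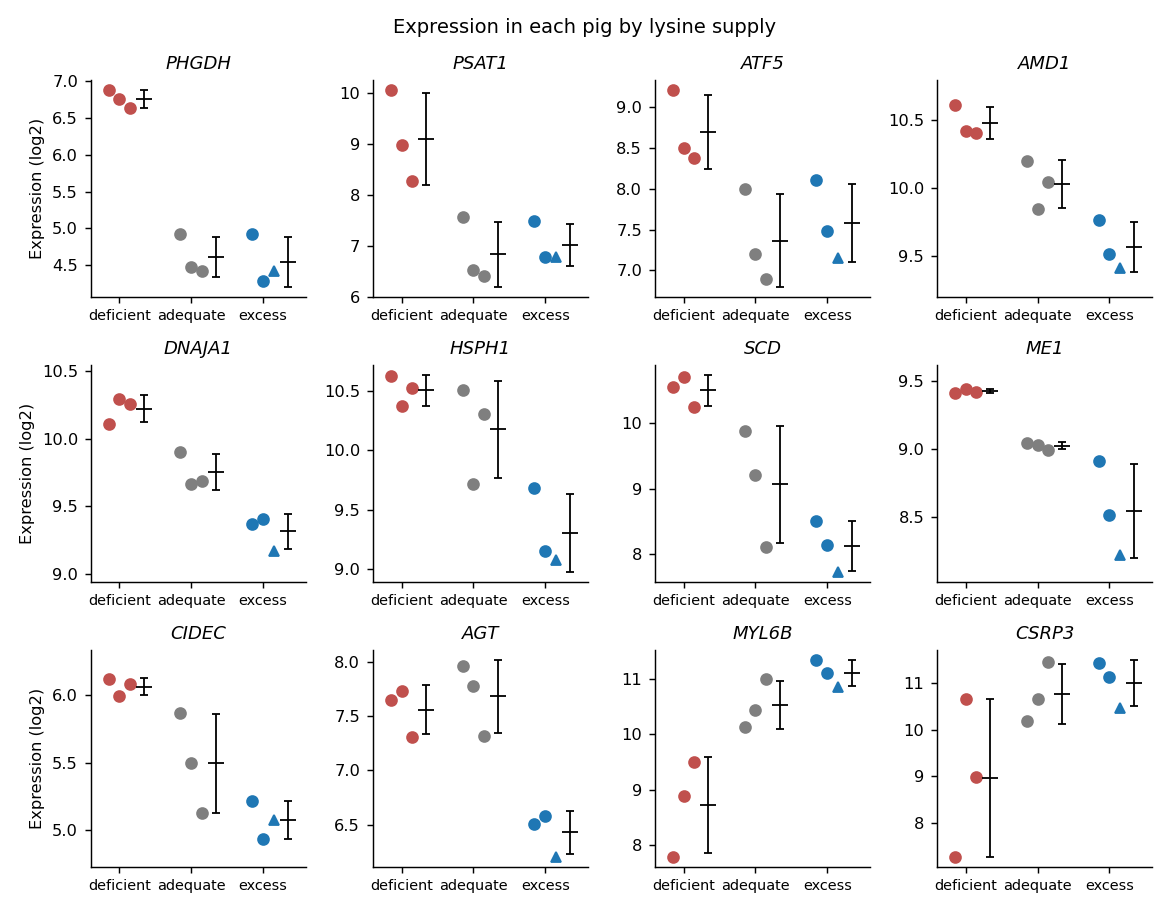
Log2 expression of 12 genes in each of the 9 pigs by diet; circles are pigs, the triangle is excess pig 11, and the dash with a bar is the group mean ± SD (n = 3). PHGDH and PSAT1 are high in the deficient pigs alone, AMD1, DNAJA1 and ME1 step down over the 3 diets, AGT is low in the excess pigs alone, and MYL6B and CSRP3 are low and widely spread in the deficient pigs.

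Amino acid carriers, as a group, did not share this lean. Of 17 measured, 9 were higher and 8 lower, with a median difference of 0.064, or 0.014 without pig 11. SLC1A5, a glutamine carrier, read 7.29, 7.05 and 6.65 in deficient and 6.59, 6.28 and 5.81 in excess pigs and differed by 0.77 ± 0.28. It was the 1 carrier whose groups did not overlap, a share of 5.88% of the list against 7.01% of all genes. The cationic carriers that take up lysine gave 0.10 ± 0.072 for SLC7A1, whose probe set was dim, and -0.12 ± 0.24 for SLC7A2. The probe set of SLC7A2 was brighter and read 10.10, 10.09 and 10.41 against 10.46, 10.49 and 10.02. The groups of SLC7A2 overlapped, and its difference was -0.27 without pig 11.

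AASS, the bifunctional enzyme that opens lysine's own degradation by the saccharopine route, read 7.08, 6.66 and 7.13 in deficient and 7.15, 7.38 and 7.31 in excess pigs, a difference of -0.33 ± 0.28, and -0.18 without deficient pig 2, the lowest of its group. The groups did not overlap but met closely at 7.13 in deficient pig 3 and 7.15 in excess pig 9, and the adequate pigs (6.41, 7.35 and 7.48) lay on both sides of them. The 9 measured genes of the route split into 3 higher and 6 lower with a median of -0.063, or -0.033 without pig 11, and none reached an unadjusted p under 0.05 in limma. ALDH7A1 of this route was not analysed here. Carnitine synthesis starts from trimethylated lysine. Of the 5 measured genes of carnitine synthesis and uptake, 4 were higher and 1 lower, with no group separated. Their differences ran from -0.37 to 0.70, with a median of 0.32 (0.20 without pig 11). TMLHE, the first enzyme of carnitine synthesis, differed by 0.32 ± 0.14, and by 0.20 without pig 11.

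The machinery that makes and removes protein leaned towards deficient muscle with all 6 pigs and much less without pig 11. All 16 measured genes of transfer RNA charging, enzymes and accessory proteins, had a higher deficient mean. Of them, 4 did not overlap, against 5.06% of all genes. Their median difference was 0.36, but it was 0.11 without pig 11. GARS, for glycine, read 9.37, 9.32 and 8.88 against 8.87, 8.70 and 8.22 and differed by 0.60 ± 0.20. DARS, for aspartate, differed by 0.53 ± 0.17 and NARS, for asparagine, by 0.63 ± 0.24, which were 0.32 and 0.41 without pig 11. KARS, the enzyme that charges the lysine transfer RNA, read 11.01, 11.30 and 11.21 against 11.17, 11.34 and 10.81, a difference of 0.065 ± 0.14, and -0.084 without pig 11, with overlapping groups. TARS, for threonine, had the largest difference of the list, 0.96 ± 0.44, and it was 0.43 without that pig.

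Translation factors were higher for 25 of 26 with a median of 0.19, which was 0.039 without pig 11. EIF2S2, the beta subunit of eIF2, the complex on which GCN2 acts, read 11.01, 10.97 and 10.78 in deficient, 10.51, 10.29 and 10.39 in adequate and 10.29, 10.45 and 10.17 in excess pigs. The deficient pigs lay above all 6 others, and the difference of 0.62 ± 0.10 was 0.55 without pig 11. The gene has 2 probe sets with identical values, so this is 1 measurement. EIF2S3, the gamma subunit, differed by 0.33 ± 0.14, and by 0.15 without pig 11.

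A further 5 groups moved with pig 11 in the same way. The mTORC1 and amino acid sensing list had 27 of 29 genes higher with a median of 0.17, and 0.016 without that pig. The proteasome list had 23 of 28 higher, 8 of them without overlap against 5.06% of all genes, at a median of 0.22 and 0.093 without it. PSMD12, a subunit of the proteasome lid, read 11.22, 11.08 and 11.21 against 10.92, 10.74 and 10.73, a difference of 0.37 ± 0.09 that was 0.34 without pig 11. Mitochondrial ribosomal proteins had 43 of 52 higher at a median of 0.13, which turned to -0.02. Autophagy genes had 20 of 22 higher at 0.18, and 0.027 without pig 11. Cytosolic ribosomal proteins had 27 of 38 higher, with a median of 0.093, and 0.035 without pig 11.

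Chaperones were the list with the largest share of separated genes, 54.5%, among those written with the design. Heat shock proteins and co-chaperones were higher in deficient muscle for 32 of 33 measured genes, 18 of the 33 did not overlap, all higher, against 5.06% of all genes, and the median was 0.37 with pig 11 and 0.30 without it. None passed the adjusted test, and 16 higher and 1 lower had an unadjusted p under 0.05 in limma, against 3.34% and 1.06% of all genes. Heat shock proteins hold unfolded proteins, and co-chaperones of the J-domain and HSP90 families pass clients to them.

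DNAJA1, a J-domain partner of HSP70, read 10.11, 10.30 and 10.26 in the deficient pigs, 9.90, 9.67 and 9.69 in the adequate pigs and 9.37, 9.41 and 9.17 in the excess pigs. The 9 pigs were fully ordered by diet, and the difference was 0.90 ± 0.10, 1.87-fold, with an adjusted p of 0.319 in limma. CHORDC1, an HSP90 co-chaperone, read 10.17, 9.92 and 9.95, then 9.65, 9.63 and 9.50, then 9.31, 9.09 and 8.94 over the same diets. It too was fully ordered, with 0.90 ± 0.11. CACYBP, which binds HSP90 co-factors and a ubiquitin ligase, differed by 0.58 ± 0.094 and was ordered as well. Without pig 11 these 3 differed by 0.83, 0.82 and 0.48.

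HSPH1, a nucleotide exchange factor of HSP70, had the largest difference of the list, 1.20 ± 0.23, from 10.63, 10.37 and 10.52 in deficient and 9.68, 9.15 and 9.08 in excess pigs. The diets at the ends did not overlap, and 2 of the 3 adequate pigs (10.50, 9.72 and 10.31) lay near the deficient pigs. Its relative HSPA4 differed by 0.50 ± 0.12, and AHSA1, the activator of the HSP90 ATPase, by 0.37 ± 0.096. HSP90AB1, the constitutive HSP90, and HSPA8, the constitutive HSP70, are abundant, and their differences were small, 0.22 ± 0.063 and 0.16 ± 0.068. BAG3, which couples HSP70 to autophagy of damaged filaments in muscle, differed by 0.76 ± 0.25, and its small heat shock partner HSPB8 by 0.62 ± 0.19. HSPB1 differed by 0.52 ± 0.18. HSPB6, a small heat shock protein of muscle, was the exception in direction, at -0.30 ± 0.11 with overlapping groups. The transcription factor HSF1 differed by 0.12 ± 0.22, and by -0.054 without pig 11.

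The mitochondrial chaperonin HSPD1 read 9.43, 9.29 and 9.33 against 9.10, 9.00 and 8.42. Its difference of 0.51 ± 0.16 was 0.30 without pig 11. HSPE1, its lid, differed by 0.17 ± 0.095. In the endoplasmic reticulum, HSPA5 differed by 0.50 ± 0.19 and CALR by 0.23 ± 0.089, and without pig 11 by 0.28 and 0.14. The unfolded protein response list as a whole was higher for 19 of 20 at a median of 0.17, and 0.052 without that pig. SERP1, a small protein that stabilises membrane proteins during such stress, read 9.47, 9.21 and 9.43, 9.18, 9.12 and 8.91 and 8.69, 8.83 and 8.55 over deficient, adequate and excess pigs. Its 9 pigs were fully ordered, with 0.68 ± 0.11, and 0.61 without pig 11.

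**Figure D2:**
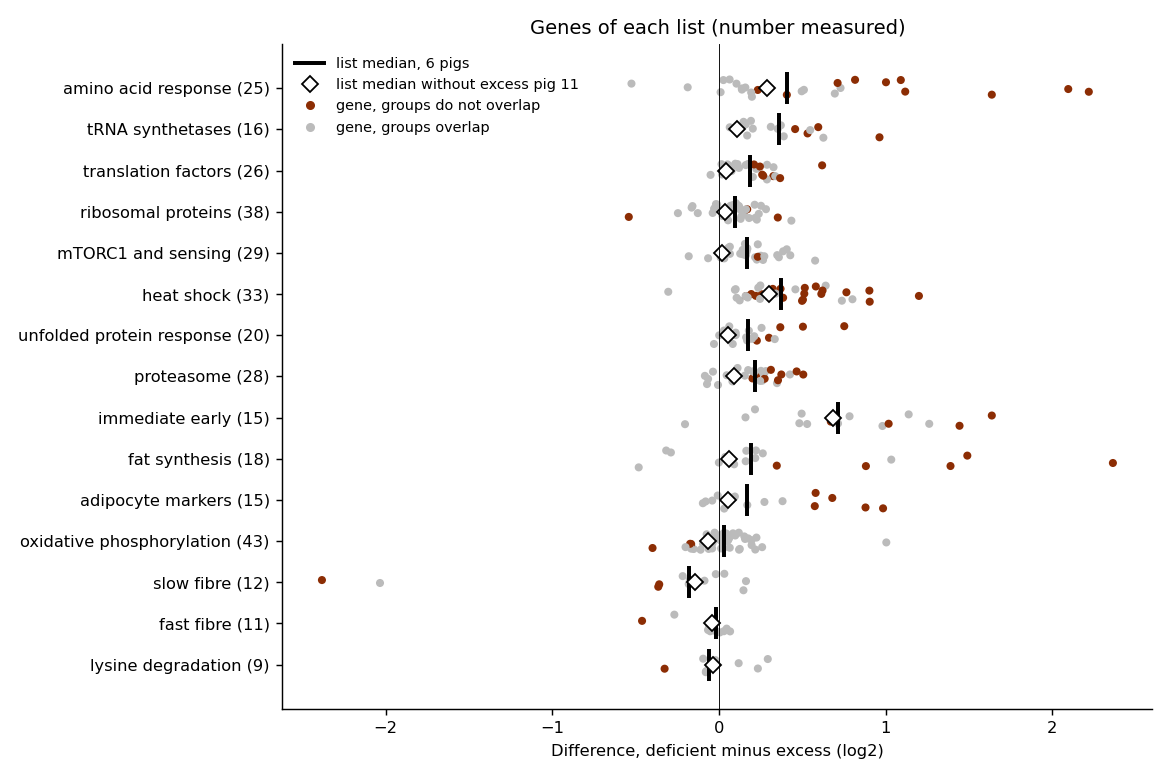
Difference, deficient minus excess (log2), of each measured gene in 15 lists; brown points are genes whose 3 deficient and 3 excess pigs do not overlap, the bar is the list median with 6 pigs and the diamond without excess pig 11. The amino acid response, heat shock and immediate early medians are 0.29, 0.30 and 0.69 without pig 11, while the medians for translation factors, mTORC1, the proteasome and oxidative phosphorylation come to between -0.065 and 0.093.

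Genes of fat synthesis included some of the widest gaps. SCD, the desaturase that makes oleate and the known rate-setting step for monounsaturated fat, read 10.55, 10.70 and 10.24 in deficient, 9.87, 9.21 and 8.11 in adequate and 8.50, 8.15 and 7.74 in excess pigs. The ends of the range did not overlap, the adequate pigs lay between them with 1 inside the excess range, and the difference was 2.36 ± 0.42, 5.15-fold, with an adjusted p of 0.872 in limma and 2.17 without pig 11. ME1, malic enzyme, which supplies reducing power for fatty acid synthesis, read 9.42, 9.45 and 9.42, 9.05, 9.03 and 9.00 and 8.91, 8.51 and 8.22. It was fully ordered over the 9 pigs, and the 3 deficient pigs were nearly equal. Its difference was 0.88 ± 0.15. ACLY, which makes cytosolic acetyl-CoA, differed by 1.03 ± 0.37 with groups that met at 7.00 in deficient pig 1 and 7.01 in excess pig 9. In triglyceride assembly, DGAT2, which adds the last acyl chain, read 6.56, 6.78 and 6.23 against 5.02, 5.39 and 4.68 without overlap and differed by 1.49 ± 0.34, with an excess mean dimmer than the array-wide median. DGAT1, the other enzyme of that step, differed by 0.26 ± 0.17 and overlapped, and it was at 0.088 without pig 11.

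THRSP, a nuclear protein tied to lipogenesis, read 7.49, 8.58 and 7.55 against 6.35, 6.63 and 6.47 and differed by 1.39 ± 0.38 without overlap, from 2 probe sets with identical values. The regulated carboxylases differed little, ACACA by 0.091 ± 0.11 and ACACB by 0.22 ± 0.24, and GPAM, which starts glycerolipid synthesis, lay lower at -0.48 ± 0.27. FASN was not analysed here. Over the list, 14 of 18 genes were higher and 4 lower, 5 did not overlap, all higher, against 5.06% of all genes, and the median was 0.19, or 0.06 without pig 11. The 5 were SCD, ME1, DGAT2, THRSP and LCLAT1, an acyltransferase whose difference of 0.35 ± 0.11 was 0.23 after quantile normalization. Without excess pig 9 the value of GPAM was -0.17, and without pig 11 that of ACACB was -0.0055 and that of ACACA 0.20.

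Some markers of fat cells also lay higher. CFD, the adipocyte protease adipsin, read 8.21, 8.05 and 8.12 in deficient, 8.08, 7.85 and 7.69 in adequate and 7.53, 7.32 and 7.48 in excess pigs, a difference of 0.68 ± 0.11 without overlap. CIDEC, which enlarges lipid droplets, read 6.12, 5.99 and 6.08 against 5.22, 4.94 and 5.08 and differed by 0.98 ± 0.17. PLIN1, the coat of the adipocyte droplet, read 6.05, 6.14 and 6.50 against 5.41, 5.36 and 5.28 and differed by 0.88 ± 0.21. All 3 were separated between the ends, and without pig 11 they differed by 0.70, 0.98 and 0.85. LIPE, hormone-sensitive lipase, lay near the array-wide median level and differed by 0.57 ± 0.18, and by 0.38 without deficient pig 3, the highest of its group. PPARG, the factor that drives fat cell formation, differed by 0.58 ± 0.28. LEP, RETN, AQP7, CEBPA and PCK1 were dimmer on average than the array-wide median and differed by -0.10 to 0.10. Of the other 5 members, all with overlap, the lipase LPL, the lipolysis inhibitor G0S2 and the droplet coat PLIN2 differed by 0.27, 0.38 and 0.17, and the droplet coat PLIN4 and the lipase PNPLA2 by -0.08 and -0.041. Without pig 11 these 5 were at 0.11, 0.23, -0.026, -0.14 and -0.22.

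The 15 measured fat cell markers had a mean level of 6.52 to 6.74 in deficient, 6.42 to 6.69 in adequate and 6.23 to 6.45 in excess pigs, with 11 of 15 higher, 5 without overlap against 5.06% of all genes and a median difference of 0.17, or 0.056 without pig 11. Of the 15, 5 were dim. Like SCD, DGAT2, THRSP, ME1 and ACLY, the 5 separated markers had a higher deficient mean. The part of fat cells in those results was not tested. In such bulk tissue more cells of a type and more RNA per cell cannot be told apart. ADIPOQ was not analysed here.

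Contractile genes gave the widest lower values. MYL6B, a slow-fibre myosin alkali light chain, read 7.79, 8.89 and 9.50 in deficient pigs 1, 2 and 3, 10.14, 10.44 and 11.01 in adequate pigs and 11.34, 11.12 and 10.86 in excess pigs. Every deficient pig lay below every other pig, and the adequate pigs overlapped the excess pigs at their upper end. The difference was -2.38 ± 0.42, 5.22-fold lower, with an adjusted p of 0.872 in limma, and -2.51 without pig 11. A second probe set of the gene gave -2.29 ± 0.42. The deficient values were the widest spread of the 3 diets, with pig 1 the lowest.

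CSRP3, the muscle LIM protein of the Z-disc, read 7.28, 10.66 and 8.99 against 11.43, 11.12 and 10.47. Deficient pig 2 lay within the excess range, so the groups overlapped, and the difference of -2.03 ± 0.78 was -1.19 without deficient pig 1. A second, dimmer probe set read 4.73, 8.10 and 6.72 against 9.41, 8.97 and 9.00. It did not overlap and differed by -2.61 ± 0.74, and by -1.72 without deficient pig 1. In both probe sets pig 1 was lowest, pig 3 intermediate and pig 2 highest among the deficient pigs, which is not the order of MYL6B.

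The abundant slow-fibre genes differed less. MYL2, the slow regulatory light chain, read 12.15, 12.08 and 12.31 against 12.61, 12.39 and 12.62 without overlap and differed by -0.36 ± 0.11, with adequate pigs at 12.26, 12.01 and 12.29. MYOZ2, a slow-fibre Z-disc protein, differed by -0.36 ± 0.15, which was -0.24 without deficient pig 1. MYH7, the slow myosin heavy chain, differed by -0.22 ± 0.14 and TNNC1, slow troponin C, by -0.18 ± 0.11, both with overlap. The value of MYH7 was -0.10 without excess pig 9 and -0.33 without excess pig 10. Over the slow list 9 of 12 genes were lower and 3 higher, 3 did not overlap, all lower, against 1.96% of all genes, and the median was -0.18, or -0.14 without pig 11. It was -0.072 without excess pig 9 and -0.29 without excess pig 10.

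Fast-fibre genes as a list sat near 0, at a median of -0.016 over 11 genes, with 7 lower, and -0.04 without pig 11. PVALB, parvalbumin, the calcium buffer of fast fibres, was the exception at 10.13, 10.65 and 10.87 against 11.03, 11.02 and 10.99. It did not overlap, but its difference of -0.46 ± 0.17 was -0.25 without deficient pig 1. MYH1, a fast myosin heavy chain, differed by -0.27 ± 0.16, and MYH2 and MYH4 were not analysed here. MYBPC1, slow myosin-binding protein C, read 12.06, 11.94 and 12.17 in deficient, 12.26, 12.17 and 12.47 in adequate and 12.56, 12.48 and 12.43 in excess pigs and differed by -0.43 ± 0.099. The ends did not overlap, and the value without pig 11 was -0.46. BIN1, which shapes the T-tubules, differed by -0.19 ± 0.11 with overlap in its brightest probe set and by -0.46 ± 0.13 without overlap in another. ANKRD1, a stretch-responsive protein of the sarcomere, went the other way, with 12.75, 12.58 and 12.39 against 12.18, 11.59 and 11.69 and 0.76 ± 0.32. XIRP1, an actin-binding protein of muscle, had the largest difference among shared sarcomere genes, 1.23 ± 0.83, with 10.12, 10.07 and 10.98 against 9.96, 8.51 and 8.99. Its groups did not overlap, and the adequate pigs (10.84, 7.82 and 10.94) ran from below both groups to near their top. Of the 26 shared sarcomere genes 15 were higher and 11 lower, 2 higher and 3 lower ones did not overlap (19.2%, against 7.01% of all genes), and the median was 0.024. Without pig 11 the median was -0.0038, with 11 higher and 15 lower.

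Polyamine and arginine metabolism held a few separated genes in a list that did not lean as a whole. In it 7 of 13 were higher, with a median of 0.043, or 0.0019 without pig 11. Of the 13, 3 were separated higher and 1 lower, a share of 30.8% against 7.01% of all genes. AMD1, the decarboxylase that commits S-adenosylmethionine to polyamines, read 10.62, 10.42 and 10.41 in deficient, 10.20, 9.84 and 10.04 in adequate and 9.77, 9.51 and 9.41 in excess pigs. It was fully ordered by diet and differed by 0.92 ± 0.13, 1.89-fold, with an adjusted p of 0.781 in limma. ARG2, mitochondrial arginase, read 9.94, 9.29 and 9.25 against 8.81, 8.52 and 7.63 and differed by 1.17 ± 0.33, with the adequate pigs (8.69, 8.10 and 8.28) among the excess pigs. NOS1, the nitric oxide synthase of muscle fibres, differed by 0.77 ± 0.25, and ASS1, which was dim, by -0.26 ± 0.096. AMD1, ARG2 and NOS1 did not overlap between the ends, while ASS1 did. Dimmer second probe sets gave 0.079 ± 0.080 for NOS1 and 0.0014 ± 0.069 for ASS1, both with overlap. The other polyamine enzymes SRM and SMS differed by 0.18 ± 0.10 and 0.16 ± 0.22, and by 0.11 and -0.12 without pig 11.

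Several regulatory genes were separated. AGT, angiotensinogen, read 7.64, 7.73 and 7.30 in deficient and 6.51, 6.58 and 6.21 in excess pigs. The adequate pigs, at 7.96, 7.77 and 7.31, lay with the deficient pigs, so the excess pigs alone were low. The difference was 1.13 ± 0.19, 2.18-fold. The receptor AGTR1 differed by 0.64 ± 0.27, and by 0.37 without pig 11. CDKN1A, the cell cycle inhibitor p21, read 9.51, 9.40 and 8.75 against 8.69, 8.09 and 7.92 and differed by 0.99 ± 0.30 without overlap. GRB10, an adaptor that restrains insulin and IGF receptor signalling, differed by 1.00 ± 0.39, but pig 11 was over 1 unit below its group mates and without it the difference was 0.52.

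Growth factors and brakes of muscle mass did not share a direction. The 14 measured genes of the IGF axis split into 7 higher and 7 lower with a median of 0.068, or -0.044 without pig 11. The 11 growth brakes and atrophy genes split into 6 higher and 5 lower with a median of 0.0048, or -0.14 without pig 11. GRB10 and CDKN1A were the members of these lists whose groups did not overlap. Those shares were 7.14% of the IGF axis and 9.09% of the growth brakes and atrophy genes, against 7.01% of all genes. FST, follistatin, which binds myostatin, differed by 0.57 ± 0.28 (0.35 without pig 11 and 0.27 without deficient pig 3). INSR, the insulin receptor, differed by 0.49 ± 0.24 (0.26 without pig 11). Its 2 dimmer probe sets gave 0.20 ± 0.19 and 0.29 ± 0.24 (-0.0006 and 0.24 without pig 11). FOXO1, a transcription factor of the atrophy program, differed by 0.48 ± 0.29 (0.13 without pig 11), and IRS1, the substrate of the insulin receptor, by -0.54 ± 0.25 (-0.30 without deficient pig 1). IGF1 read 8.52, 8.47 and 8.68 against 8.73, 8.72 and 8.29, a difference of -0.025 ± 0.21 (-0.17 without pig 11), and MSTN, myostatin, the growth brake, read 9.35, 9.77 and 9.57 against 9.54, 9.81 and 9.57, a difference of -0.073 ± 0.25. FBXO32, the atrophy ubiquitin ligase atrogin-1, differed by -0.28 ± 0.33, and by -0.12 without deficient pig 2. In all 7 the groups overlapped. Differences the size of these SEs are not detectable with 3 pigs per group, and the signs of IGF1 and MSTN turned when single pigs were left out. IGF2, IGFBP5 and TRIM63 were not analysed here. PDK4, which turns muscle away from glucose use, varied widely within each diet and had a mean difference of -0.0019 ± 0.58, and -0.33 without pig 11.

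Glycogen and clock genes each had separated members. Of 25 glycolysis and glycogen genes, 2 were separated higher and 2 lower, a share of 16.0%. Of 14 clock genes, 4 were separated, all higher, a share of 28.6%. The share over all genes was 7.01%, with 5.06% higher and 1.96% lower. PPP1R3C, a glycogen-targeting subunit of protein phosphatase 1, read 9.29, 9.46 and 9.70 against 8.95, 8.32 and 7.64 and differed by 1.18 ± 0.35, with 0.85 without pig 11. The glycolysis and glycogen list as a whole had 16 of 25 genes higher with a median of 0.0087, and 8 higher and 17 lower with -0.047 without pig 11. ARNTL, the clock activator BMAL1, differed by 0.57 ± 0.17 and CRY1, a clock repressor, by 0.61 ± 0.22, and neither overlapped. CLOCK, the partner of ARNTL, differed by 0.28 ± 0.11, and by 0.17 without pig 11. PER1, PER2 and DBP differed by -0.36 ± 0.43, 0.048 ± 0.17 and -0.064 ± 0.58, each with overlap. The value of PER1 was -0.097 without deficient pig 2 and -0.80 without deficient pig 3. Without pig 11 DBP was at 0.036.

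Immediate early genes, which cells switch on quickly after a stimulus, had the widest list median of those written with the design, 0.71 over 15 genes, with 14 higher and 0.69 without pig 11. It was 0.44 without deficient pig 3. Of the 15, 4 did not overlap, all higher, against 5.06% of all genes. EGR1 read 7.35, 6.63 and 6.99 against 6.44, 5.49 and 5.98, a difference of 1.02 ± 0.35, and NR4A3 read 9.15, 7.93 and 9.38 against 7.90, 6.51 and 7.72, a difference of 1.44 ± 0.54. Both were separated by a narrow gap and varied widely within each diet, and an adequate pig lay as high as the deficient pigs for EGR1 (7.18, 6.05 and 6.35). CYR61 differed by 1.14 ± 0.45 and MYC by 0.67 ± 0.28, which was 0.44 without deficient pig 3. FOS ranged from 5.55 to 8.06 within the excess pigs, and its difference of 1.26 ± 0.79 was 0.61 without deficient pig 3 and 1.92 without pig 11. ATF3, which is also an ATF4 target, ranged from 8.36 to 12.15 within the adequate pigs and differed by 1.64 ± 0.93.

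Other leading genes came from outside these lists. Higher in deficient muscle were HOXA4, a homeobox factor, with 0.43 ± 0.08, ZIC1, a zinc-finger factor, with 0.64 ± 0.12, and FUT1, a fucosyltransferase, with 1.11 ± 0.21. HOXA4 read 5.90, 6.10 and 5.91, 5.78, 5.78 and 5.78 and 5.64, 5.53 and 5.44 over the 3 diets, a small but fully ordered step. FUT1 was high in the deficient pigs (6.59, 6.25 and 6.29) and alike in adequate (5.40, 5.43 and 4.83) and excess pigs (5.63, 5.13 and 5.04). Lower in deficient muscle was ZNF181, a zinc-finger factor, at 5.36, 5.22 and 5.21, 5.55, 5.68 and 5.55 and 5.69, 5.80 and 5.93. Its 9 pigs were fully ordered the other way, and the difference was -0.54 ± 0.085. ZNF106 differed by -0.41 ± 0.08, CPEB2, a regulator of mRNA translation, by -0.35 ± 0.074, NDUFA1, a subunit of respiratory complex I, by -0.40 ± 0.11, and FRZB, a secreted Wnt antagonist, by -0.43 ± 0.12. A further 4 separated genes, GRIK2, LRRC28, SNX7 and RNLS, differed by -0.44 to -0.26, and the uncharacterised LOC100516643 by -0.89 ± 0.25, which was -0.55 without excess pig 9.

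Energy metabolism did not separate the diets as a whole. Oxidative phosphorylation subunits were higher for 28 of 43 and lower for 15 with a median of 0.027. Without pig 11 the median was -0.065, with 11 higher and 32 lower. With all 6 pigs the groups did not overlap in 3 of the 43, all lower, a share of 6.98% where 7.01% of all genes did not overlap, 1.96% lower. Fatty acid oxidation genes had a median of 0.066 with 0 of 23 separated, and cholesterol synthesis genes of -0.057 with 0 of 13 separated. Without pig 11 the oxidation list was at -0.087, with 19 of 23 lower, and the cholesterol list at -0.15, with 11 of 13 lower. Separated lower without that pig were 9 of the 43 oxidative phosphorylation genes and 3 each of the oxidation and cholesterol lists, and none was separated higher. Of all 12361 genes with a symbol, 799 were separated lower without it, and with fewer pigs separation is easier. PPARGC1A and CPT1B were not analysed here.

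Markers of other cells gave medians on both sides of 0. Collagens had a median of 0.028 over 15 chains, or -0.067 without pig 11, with COL1A1 at -0.20 ± 0.12 and COL3A1 at 0.13 ± 0.28 (-0.11 without pig 11). A second, dimmer probe set of COL1A1 gave 0.062 ± 0.16, and -0.10 without pig 11. The mean level of the collagen list was 6.70 to 6.99 in deficient and 6.75 to 7.01 in excess pigs, which overlapped. Medians were 0.20 for 10 endothelial, 0.067 for 12 macrophage, -0.01 for 14 lymphocyte and -0.017 for 6 red blood cell markers. In the same order, 0, 0, 1 and 0 genes were separated upwards and 1, 0, 0 and 0 downwards. Of all genes, 5.06% were separated upwards and 1.96% downwards. The endothelial median was thus as wide as that of the fat cell markers. Without pig 11 these medians were 0.071, 0.087, -0.029 and -0.032. All 7 satellite cell markers had a higher deficient mean, at a median of 0.12 (0.1 without pig 11). Their mean level was 6.13 to 6.21 against 5.96 to 6.04 in excess pigs. Of the 7, 1 was separated upwards, or 14.3%, against 5.06% of all genes. It was VCAM1, which vessels also make, with 0.48 ± 0.18 (0.28 without deficient pig 3). The remaining 14 lists with at least 5 measured genes, whose medians are not described here, had medians from -0.10 to 0.26, and from -0.22 to 0.08 without pig 11. Of the blood cell markers, 11 of the 14 lymphocyte and all 6 red blood cell genes lay below the median level.

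The adequate pigs place the 2 ends. All 9 pigs were ordered by diet in 40 of the 12361 genes with a symbol. Of the 40, 34 had the highest values in deficient muscle and 6 the lowest. The 34 differed by 0.20 to 1.02, and by 0.11 to 0.84 without pig 11. They included DNAJA1, CHORDC1, CACYBP, DNAJA2 and PTGES3 among chaperones and HSP90 co-factors, and AMD1, ME1, SERP1 and HOXA4. In some of the 40 genes adequate pigs had identical values, such as 8.2731 in all 3 for RNGTT and 10.5011 in all 3 for POLH. For HOXA4 adequate pigs 5 and 6 both read 5.7773. The cause of these ties was not tested. The genes with the widest gaps, PHGDH, PSAT1, SCD and MYL6B, were not among the 40. PHGDH, PSAT1, PCK2, ATF5 and FUT1 showed adequate pigs at or near the excess level, and AGT showed them at the deficient level. The 40 were chosen by the values of all 9 pigs, the adequate ones included, so this placement is a description with no test.

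**Figure D3:**
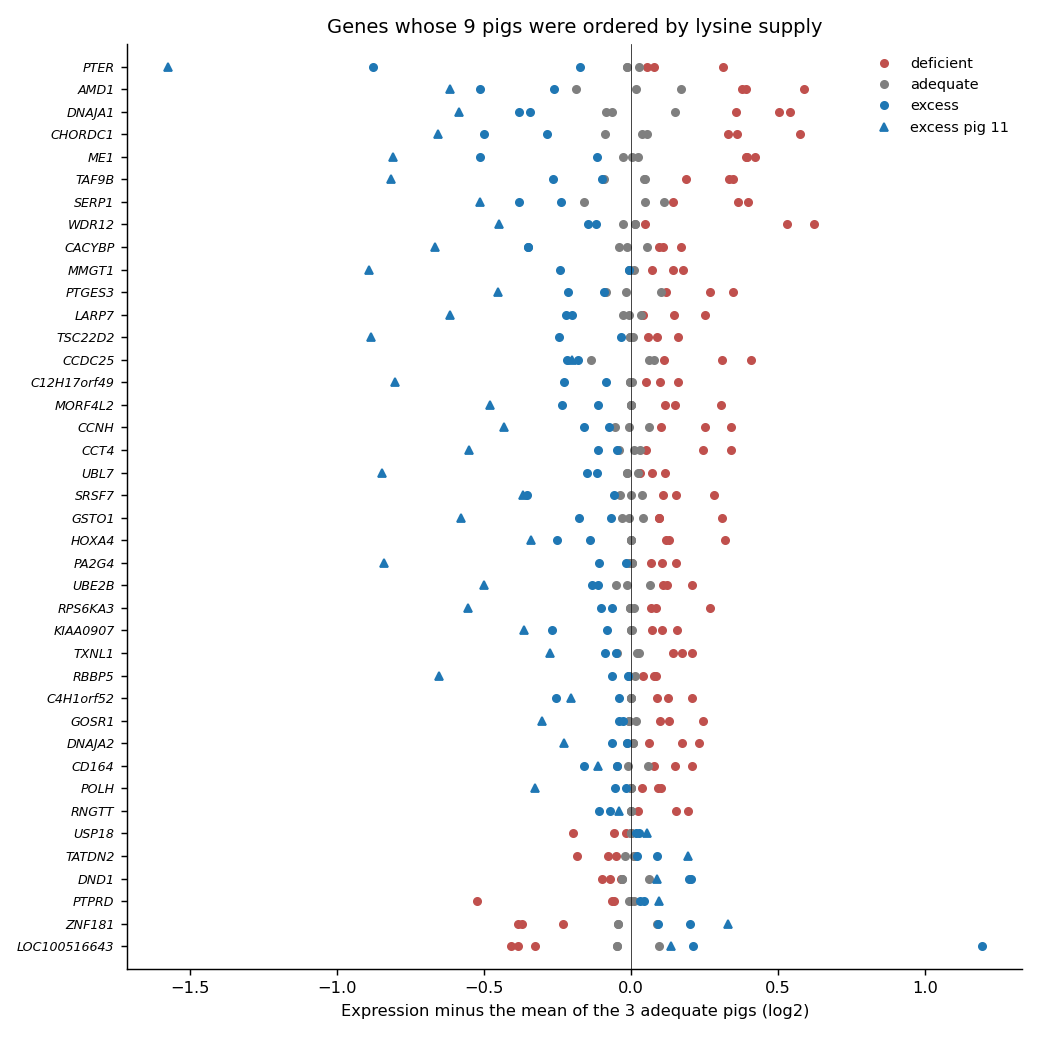
Expression of each of the 9 pigs minus the mean of the 3 adequate pigs (log2) for the 40 genes whose pigs were ordered by diet; colours give the diet and triangles excess pig 11. The 34 upper genes have their deficient pigs to the right, by up to 1.02 between the end means, and for TAF9B pig 11 lies far to the left of its group mates.

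**Figure D4:**
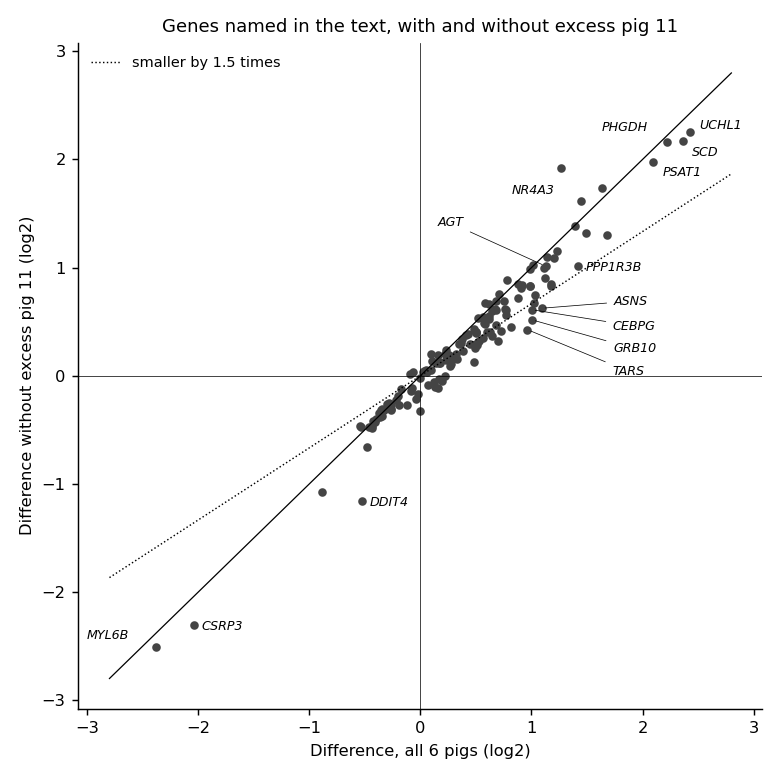
Difference, deficient minus excess (log2), of the named genes with all 6 pigs (horizontal) and without excess pig 11 (vertical); the solid line marks equal values and the dotted line values smaller by 1.5 times. PHGDH, PSAT1, SCD and MYL6B lie on or near the solid line, while GRB10, CEBPG, ASNS and TARS lie below the dotted line.

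Leaving out pig 11 thus sorted the leading genes. The differences of PHGDH, PSAT1, PSPH, PCK2, SCD, THRSP, DGAT2, CFD, CIDEC, AMD1, DNAJA1, CHORDC1, HSPH1, AGT, MYL6B and MYL2 stayed within 1.5 times of their values with all pigs. Those of ASNS, CEBPG, GRB10, HSPD1, HSPA5, DARS, NARS, AGTR1 and CLOCK were over 1.5 times smaller without it. Each kept its direction, which could not turn where the groups did not overlap. Of the 103 separated genes over 1.5-fold higher, 52 exceeded 1.5-fold both with and without pig 11, and of the 6 lower, 4 did.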

How the data were processed

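RNA of the longissimus dorsi of 9 pigs was measured on 1 whole-transcript array per pig, and the 3 deficient and 3 excess arrays were compared, grouped by the labels. The authors deposited 1 table of processed expression values, taken here as log2 because of their range; the submitters' processing notes name GCOS 1.2 and Partek with no role given, and no label names the steps of normalization, background correction and summarization or the genome build. Folds rest on that log base. The values were used as deposited. Symbols came from the platform annotation, updated by gene ID: 13323 of 27558 probe sets had 1 symbol, 357 several and 13878 none. Each diet had 1 mean in a linear model of the 9 arrays (lmFit and eBayes of limma 3.58.1 under R 4.3.3), with two-sided tests adjusted by Benjamini-Hochberg over all probe sets, and was tested on simulated data. The number of arrays limits the precision.

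The comparison, its members and the gene lists were chosen with earlier results of these data known. Lists are described by counts and medians beside those of all 12361 genes. Named were up to 15 genes per direction (those past the adjusted threshold, then the smallest p among probe sets with 1 symbol, at or above the median level and without overlap), up to 6 members with the smallest p of each list of at least 5 measured genes, members with a textbook role, and a set of key genes. PTER, TAF9B, PTGES3, PLCB1, UCHL1, MICAL2, CNTFR, PPP1R3B and the chaperonin subunits were chosen after their values were seen. Alternatives were renewed quantile normalization, median centring, the 6 arrays alone, an intensity trend with a robust prior, array quality weights, leaving out the dimmest 25% of probe sets, probe sets with 1 symbol alone, the mean of a gene's probe sets, and leaving out each pig. No sequences are printed and the planned search of promoters was not run.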

Additional observations from a re-analysis of the deposited data

How the results depend on the processing

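No paired analysis was possible because the pigs of the diets carry different numbers. The adjusted count was 0 in limma, with 1124 at an unadjusted p under 0.05, and stayed 0 in each alternative except the fit to probe sets with 1 symbol, which called 1. The unadjusted count was 593 there (444 higher, 149 lower, from fewer probe sets), 729 with the 6 arrays alone (203 lower), and 456 with array quality weights, whose estimation stopped short of its tolerance (286 higher, 170 lower); after median centring 215 were lower. Leaving out 1 of the 9 pigs gave 839 to 3969 (566 to 2171 higher, 225 to 1798 lower), and leaving out 1 of the 6 gave 3357 to 7478 probe sets without overlap, each highest without excess pig 9; with fewer pigs, separation is easier. The cause of the other moves was not tested. Of the 33 list medians described, 16 kept their sign throughout. Without single pigs the median was 0.109 to 0.491 for transfer RNA charging genes, 0.0391 to 0.248 for translation factors and 0.0555 to 0.364 for fat cell markers. It was -0.0489 to -0.0058 for lymphocyte and -0.0701 to 0.0064 for red blood cell markers. With array weights it was -0.0503 for amino acid carriers, -0.0523 for lymphocyte and -0.0715 for red blood cell markers. After median centring it was 0.0343 for fast-fibre genes, 0.0405 and 0.0341 for those 2 blood lists and -0.0091 for muscle markers, after quantile normalization 0.0303 for lymphocyte and 0.008 for muscle markers, and without the dimmest 25% of probe sets -0.0919 for red blood cell markers. Of the 143 genes named, 125 kept their direction in all alternatives, and 18, none with an unadjusted p under 0.05 in limma, did not. With array weights ACACB was at -0.0561, COL3A1 at -0.153, MSTN at 0.0015, PER2 at -0.137, PLIN2 at -0.0376 and SMS at -0.004. After median centring AQP7 was at 0.043, IGF1 at 0.0253, PDK4 at 0.0488 and PNPLA2 at 0.01, and after quantile normalization AQP7 was at 0.0501. Leaving out 1 pig gave -0.0055 to 0.472 for ACACB, -0.0313 to 0.0178 for AQP7, -0.107 to 0.358 for COL3A1, -0.649 to 0.368 for DBP, -0.0532 to 0.356 for DDIT3 and -1.16 to 0.204 for DDIT4. It gave -0.0542 to 0.261 for HSF1, -0.172 to 0.0496 for IGF1, -0.0842 to 0.183 for KARS, -0.0242 to 0.188 for LEP, -0.178 to 0.0317 for MSTN, -0.325 to 0.281 for PDK4, -0.112 to 0.17 for PER2, -0.0263 to 0.364 for PLIN2, -0.312 to 0.0502 for PLIN4, -0.216 to 0.153 for PNPLA2, -0.152 to 0.0137 for RETN and -0.117 to 0.341 for SMS.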

Other observations

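Some of the widest gaps between the ends of the lysine range lay in genes that were picked out after their values were seen, and they are given as values. UCHL1, a deubiquitinating enzyme best known from neurons, read 8.21, 8.54 and 6.26 in deficient, 5.36, 5.87 and 5.84 in adequate and 5.79, 5.05 and 4.89 in excess pigs, a difference of 2.43 ± 0.57 (SE) and 2.25 without pig 11. The deficient pigs lay above all others, and 2 of them far above the third. MICAL2, an oxidase that takes actin filaments apart, read 8.24, 9.05 and 8.31 against 6.92, 7.54 and 6.10, a difference of 1.68 ± 0.38. PLCB1, a phospholipase, differed by 0.99 ± 0.20 and CNTFR, the receptor subunit for ciliary neurotrophic factor, by 0.78 ± 0.18, and none of the 4 overlapped between the ends. PTER read 11.03, 11.26 and 11.00 in deficient pigs and 10.07, 10.78 and 9.37 in excess pigs, and its difference of 1.02 ± 0.30 was 0.67 without pig 11.

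The cytosolic chaperonin, the ring that folds actin and tubulin, was a second such group. All 6 measured subunits were higher in deficient muscle, 5 of them without overlap against 5.06% of all genes with a symbol, and the median difference was 0.54, or 0.32 without pig 11. CCT4 was fully ordered over the 9 pigs. Of the glycogen-targeting subunits of protein phosphatase 1, PPP1R3B read 9.13, 8.82 and 9.56 against 8.67, 7.64 and 6.94, and its difference was 1.42 ± 0.56, or 1.02 without pig 11.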
